A study of Saccharomyces cerevisiae with 59 samples.

Results

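Ergosterol is the main sterol of fungal membranes and holds the place that cholesterol has in animal cells. It is built in stages: acetyl-CoA is carried through mevalonate to farnesyl pyrophosphate, that is joined to squalene, squalene is closed to lanosterol, and lanosterol is trimmed, desaturated and methylated to ergosterol. In yeast the transcription factors Upc2 and Ecm22 raise the transcription of many of these genes when sterols run low. The genes described here are 10 enzymes of this route: ERG10 (YPL028W), ERG13 (YML126C), HMG1 (YML075C) and ERG20 (YJL167W) of the early stage, and ERG1 (YGR175C), ERG11 (YHR007C), ERG25 (YGR060W), ERG6 (YML008C), ERG3 (YLR056W) and ERG5 (YMR015C) of the sterol stage. They were chosen by name, with earlier results of these data known, and are 10 of the 6420 genes listed in each count file.

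The RNA came from a single clone of Saccharomyces cerevisiae S288C whose cell walls had been digested away, leaving spheroplasts. All of it was from amino acid starvation (AAS): the spheroplasts were held for 30 min or longer (the labels and the study's methods differ on the longest time) in S medium with sorbitol and no amino acids, so that no unstarved sample is part of these comparisons. Bulk RNA from these populations was diluted to 5 pg (10 libraries), 10 pg (10), 20 pg (10), 100 pg (7), 1 ng (8) and 10 ng (9), and each dilution was amplified by the protocol used for single cells. A further 5 libraries of the same treatment, H6P11, H6P12, H6P14, H6P15 and H6P16, carry no amount in their labels and are given one by one. The study's own sample list does assign them amounts, 1 library to each, which were not used here to group them. The comparison between amounts asks how far the level of a gene depends on how much RNA was put in. The labels do not say that libraries came from separate cultures, so p-values measure only the spread between libraries, which may be technical.

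The 54 libraries with a stated amount held 290434 to 2452562 counts in genes, and the H6P libraries 6407797 to 14337575. The genes with at least 5 counts numbered 814 to 3244 per library at 5 pg, 2151 to 3604 at 20 pg and 1692 to 4132 at 10 ng. These ranges overlapped, but that of 5 pg with that of 10 ng only through single libraries. The 3244 genes were in 5 pg replicate 2, and the next highest value at 5 pg was 1707. The 1692 genes were in 10 ng replicate 2, with 290434 counts, and the next lowest value at 10 ng was 2595. Counts at 5 pg lay in longer genes than at 10 ng, with a mean coding length weighted by counts of 1477 ± 66.0 nt at 5 pg (SD, n = 10) against 1057 ± 55.4 nt at 10 ng (SD, n = 9). The mating type markers were those of alpha cells: 4 alpha-specific genes held 208001 counts over the 54 libraries against 564 for 7 a-specific genes. In the 5 H6P libraries the same lists held 54742 and 5321 counts, and 3 sporulation genes 5472, against 764 in the 54 libraries. Levels are given as CPM, a gene's counts over the counts in all genes of the library, scaled to 1000000.

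The members lie on 6 chromosomes of the R64 assembly, each as 1 uninterrupted coding exon with no other annotated gene overlapping it. ERG10 is at chromosome XVI, 498096 to 499292; ERG20 at X, 105014 to 106072; HMG1 at XIII, 115734 to 118898; and ERG13 at XIII, 19060 to 20535. ERG1 is at VII, 846933 to 848423, ERG25 at VII, 610564 to 611493, ERG11 at VIII, 120091 to 121683, and ERG3 at XII, 253861 to 254958. ERG6 is at XIII, 251839 to 252990, and ERG5 at XIII, 300869 to 302485. The coding sequences run from 930 nt in ERG25 to 3165 nt in HMG1, and their GC content from 38.3% to 44.1%.

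The core of the sterol regulatory element that Upc2 and Ecm22 bind, TCGTATA, was searched on both strands in the 500 bases before each start codon. It was present before 5 of the 10 members, in 8 places, and before 420 of 6002 nuclear protein-coding genes, or 7.0%. The 8 places are printed because this is the element by which the pathway's regulators are known to act, and to show where its letters lie before these 5 genes, each with 10 bases on either side, on the strand of the gene, with the element in capitals (TATACGA is its reverse complement).
ERG1, VII:848789-848815: tagcgggcctTCGTATAgctcggccga
ERG3, XII:253525-253551: aaccggggtgTATACGAggccgatggc
ERG3, XII:253565-253591: aaattcaggcTCGTATAagtggcacaa
ERG6, XIII:253406-253432: gccccgatctTCGTATAtggtacctcg
ERG13, XIII:20733-20759: ggaataagctTCGTATAtacaatagaa
ERG13, XIII:20620-20646: ggctattaatTATACGAgtgtgttgaa
ERG25, VII:610071-610097: ctgcctccctTCGTATAcgggacacag
ERG25, VII:610091-610117: gacacagagaTCGTATAcggtaaacga
The element began 101 bases before the start codon at its nearest, in ERG13, and 483 bases before it at its farthest, in ERG25. The 5 members with these letters included the most abundant of the 10 at 10 ng (ERG3) and the least abundant (ERG13). These letters were not in the window before ERG5, ERG10, ERG11, ERG20 and HMG1.

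At 10 ng the 10 genes together took 4559, 5834 and 6350 CPM (lowest, median and highest of 9 libraries), with a mean of 5567 ± 669 CPM (SD). In bulk RNA a low level in every cell and a high level in few cells cannot be told apart. Levels between genes are compared per kilobase of coding sequence. ERG3, the C-5 sterol desaturase, stood first with 1660 ± 243 CPM per kb (SD, n = 9), followed by ERG6, the C-24 sterol methyltransferase, with 1206 ± 224, and ERG20, the farnesyl pyrophosphate synthase, with 1045 ± 160.1. ERG10, the acetyl-CoA acetyltransferase that opens the pathway, had 498 ± 66.6 CPM per kb and ERG11, the lanosterol 14-alpha-demethylase that azole antifungals block, 298 ± 65.1. ERG25, the C-4 methyl sterol oxidase, had 95.2 ± 32.8. The last 4 places were held by ERG1, the squalene epoxidase (19.0 ± 7.05), ERG5, the C-22 sterol desaturase (15.5 ± 11.2), HMG1, an HMG-CoA reductase (10.6 ± 10.5), and ERG13, the HMG-CoA synthase (1.09 ± 1.55).

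Of the 9 pairs of neighbours in this order, 8 differed within libraries by a two-sided exact permutation test of the paired differences on log2(CPM per kb + 1), with adjusted p from 0.00703 to 0.00879 (Benjamini-Hochberg over the 9 pairs, n = 9 libraries). The smallest p this design allows is 0.00391. The order itself was taken from the means of these same 9 libraries. The p-values thus describe how steady each difference was between libraries and are no independent test of the ranking. The exception was ERG1 over ERG5, which held in 7 of 9 libraries with a difference of 0.38 ± 0.69 (log2, SD) and an exact adjusted p of 0.137. ERG3 was above ERG6 in 8 of 9 libraries and ERG6 above ERG20 in all 9, although the ranges of both pairs overlapped. The early and late enzymes were thus mixed in the order: ERG20 and ERG10 were among the 4 most abundant, and HMG1 and ERG13 were the 2 least abundant per kilobase. The place of HMG1 depends on the division by its 3165 nt. In CPM its mean and median at 10 ng were 33.5 and 24.9, against 28.3 and 31.5 for ERG1 and 25.0 and 18.6 for ERG5. The study reports that read coverage declined toward the 5' end of genes. The part of this in the ranks of long genes was not tested.

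The members kept nearly the same order down to 100 pg and differed most from it at 5 pg. The rank correlation of each library's 10 levels with the mean order at 10 ng (a 10 ng library's own values left out) had a median rho of 1 at 10 ng, 0.982 at 1 ng, 0.927 at 100 pg, 0.903 at 20 pg, 0.865 at 10 pg and 0.653 at 5 pg, with a lowest value of 0.0840 at 5 pg. These are descriptions over 10 genes of 1 library each. ERG3 was the leading member by CPM in 8 of 9 libraries at 10 ng, in 8 of 8 at 1 ng, in 6 of 7 at 100 pg and in 7 of 10 at 20 pg. At 5 pg it led in 1 of 10, and 6 different members led: ERG10 in 3 libraries, ERG6 and ERG20 in 2 each, and ERG3, ERG11 and ERG25 in 1 each.

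**Figure D1:**
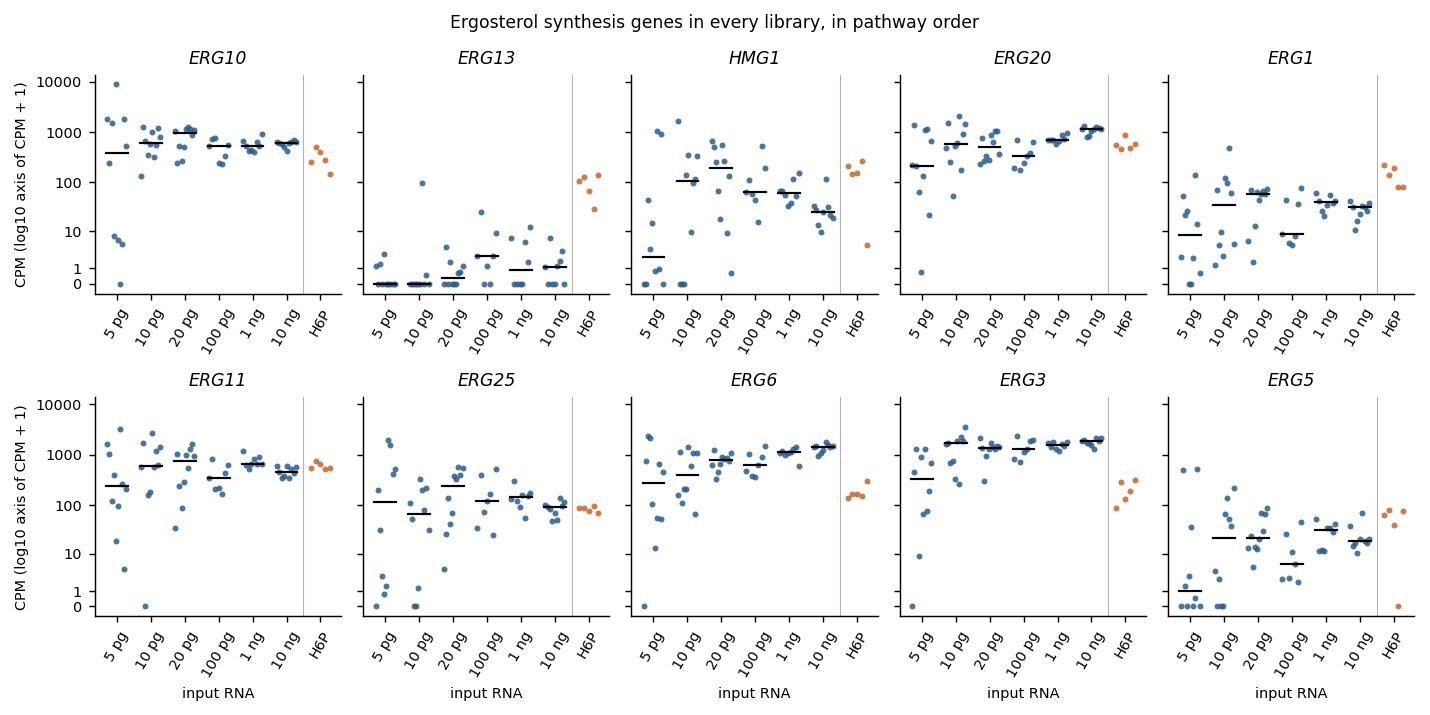
CPM of each of the 10 genes (vertical axis, log10 of CPM + 1) in every library by input RNA, in pathway order; points are libraries, black lines group medians, and orange points the 5 H6P libraries, whose amount is not labelled. At 10 ng ERG3 lay between 1312 and 2123 CPM, while at 5 pg ERG10 ran from 0 to 8795 CPM, and ERG13 was at 12.5 CPM or lower in all but 2 of the 54 libraries (96.8 CPM at 10 pg and 25.0 CPM at 100 pg).

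The summed level of the 10 genes spread more at 100 pg and below than at 1 ng and 10 ng, though not in the order of the amounts. The summed level of the 10 genes varied by a coefficient of variation of 12% at 10 ng, 10.2% at 1 ng, 45.6% at 100 pg, 35.9% at 20 pg, 54.1% at 10 pg and 60.5% at 5 pg. Among members with a mean of at least 50 CPM, the median SD of log2(CPM + 1) rose from 0.26 at 10 ng (6 members) to 3.60 at 5 pg (8 members). Over all genes of that level it was 0.39 at 10 ng (1177 genes) and 3.44 at 5 pg (1978 genes). The share of the summed level held by the leading member was 31.2% to 37.7% at 10 ng and 22.3% to 89.3% at 5 pg.

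**Figure D2:**
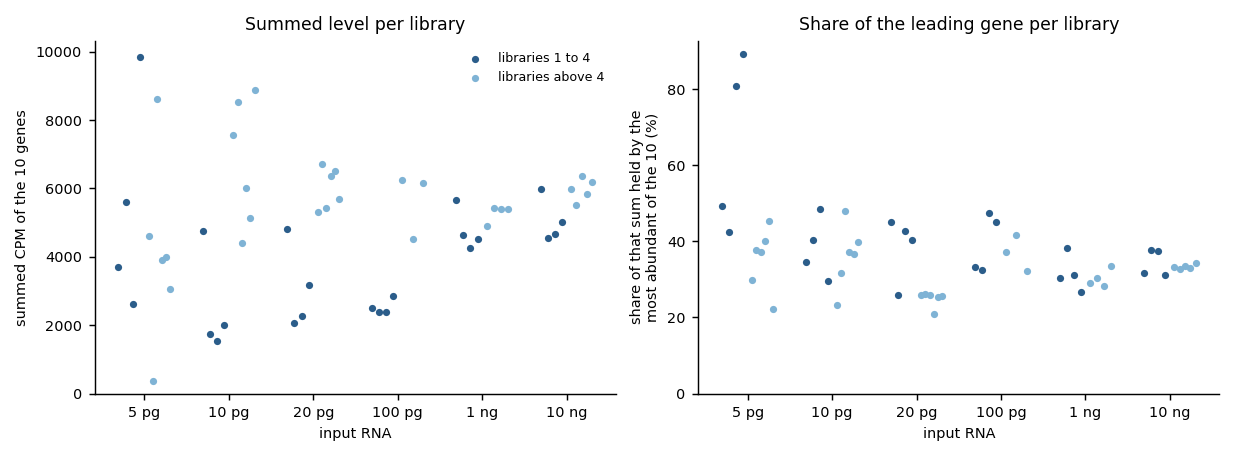
Left, summed CPM of the 10 genes; right, percent of that sum held by the most abundant of them; each point is 1 library, placed by input RNA and coloured by library number. At 5 pg the sums ran from 354 to 9847 CPM and the leading gene took up to 89.3%, while at 10 ng the leading gene took 31.2% to 37.7%.

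ERG10 shows how a single 5 pg library could differ from the rest. In the 10 libraries of 5 pg it was at 8795 CPM in replicate 4 (95% exact binomial interval 8639 to 8953), at 1829 in replicate 1, 1811 in replicate 8, 1485 in replicate 2, 540 in replicate 9, 244 in replicate 10, 7.62 in replicate 3, and 0 to 6.31 in replicates 5, 6 and 7. Intervals of this kind cover counting error only, since the reads carry no molecular identifiers. At 10 ng its lowest, median and highest values were 429, 615 and 686 CPM, so that 5 of the 5 pg libraries lay below all of the 10 ng libraries and 4 above all of them.

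ERG25 split in the same way at 5 pg, with 0, 116 and 1934 CPM (lowest, median and highest) against 47.0, 89.7 and 141 CPM at 10 ng; 5 of the 10 libraries lay below every 10 ng library and 5 above. HMG1 ran from 0 to 1046 CPM at 5 pg with a median of 2.37, ERG5 from 0 to 528 with a median of 0.980, ERG11 from 4.44 to 3198 with a median of 237, and ERG1 from 0 to 142 with a median of 8.13. ERG6 ran from 0 to 2376 CPM with a median of 281 and ERG20 from 0.733 to 1376 with a median of 216. Each of these ranges overlapped that at 10 ng.

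In the edgeR quasi-likelihood test of 5 pg against 10 ng, 2 of the 9 members tested were called at an adjusted p under 0.05 (Benjamini-Hochberg over 3492 genes), both higher at 5 pg, against 30.6% of all genes tested (23% higher and 7.65% lower). Genes were tested where 20% or more of the libraries compared had 5 counts or more, which ERG13 did not reach. The median fold change of all genes tested was itself 1.64 (log2). Fold changes here and in the later comparisons are therefore given relative to the median of their comparison. Their SE and p are those of the value before that median was subtracted. Called genes are counted as higher or lower by the sign of the relative value. A gene counted as lower may thus have a positive fold change smaller than the median, and these counts shift with the median of each setting. ERG10 was 1.62 higher at 5 pg (SE 1.21, adjusted p = 0.0413) and ERG25 1.67 higher (SE 1.24, adjusted p = 0.0424). The median of the 9 members was -0.14.

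ERG3 was the member whose 5 pg and 10 ng values did not overlap. Its lowest, median and highest values were 0, 324 and 1298 CPM at 5 pg against 1312, 1905 and 2123 CPM at 10 ng, so that all 10 libraries of 5 pg lay below all 9 of 10 ng. Of 1765 genes with a mean of at least 50 CPM over these libraries, 3.63% had ranges that did not overlap in this direction. The edgeR test over all genes did not call ERG3. Its log2 fold change was -2.43 relative to the median of all genes and -0.79 before that subtraction (SE 0.89, adjusted p = 0.491), and with library totals alone it was -1.88 before subtraction (SE 0.81, adjusted p = 0.0978).

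Neither call of this step was stable. Without 5 pg replicate 4, ERG10 turned to -0.53 (adjusted p = 0.728), and both calls were lost without that library, without 5 pg replicate 10 and without any 1 of the 9 libraries of 10 ng. ERG25 was also lost without 5 pg replicate 3, 6 or 7. Within libraries numbered 1 to 4, ERG10 was 3.94 higher (adjusted p = 0.116) and ERG25 stood at -2.75 (adjusted p = 0.248); within those numbered above 4, the values were -0.86 (adjusted p = 0.995) and 2.57 (adjusted p = 0.0840). With library totals in place of TMM no member was called, the median of all genes was 0.38, and 177 of all genes were called higher and 332 lower, where TMM gave 803 and 267. In the DESeq2 Wald test, with a median of all genes of -0.41 and with 594 higher and 748 lower, ERG25 alone was called.

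Of the other sterol genes, 3 of 14 tested in the rest of the pathway were called in this step (HMG2, MVD1 and NCP1, all higher at 5 pg), 3 of 5 regulators (HAP1, MOT3 and SUT1, all higher) and 0 of 3 genes of sterol storage and uptake, by the same edgeR test. HMG2, the second HMG-CoA reductase, was 5.64 higher (SE 1.67, adjusted p = 0.00590) and NCP1, which passes electrons to the P450 enzymes ERG11 and ERG5, 2.86 higher (SE 0.97, adjusted p = 0.00412), and neither call was lost when 1 library was left out. HMG2 had 0, 64.5 and 10285 CPM (lowest, median and highest) at 5 pg against 51.6, 59.8 and 157 CPM at 10 ng. A single library held 13046 of its 16746 counts at 5 pg. In the 9 other alternatives the call was lost in 3 for HMG2 and in 1 for NCP1. MOT3 lost its call in 4 of 8. MVD1 lost its call without 4 of the 19 libraries in turn, HAP1 without 3, and SUT1 without 5 pg replicate 4.

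No member was called between 5 pg and 10 pg (9 tested), 10 pg and 20 pg (9 tested) or 20 pg and 100 pg (10 tested) by edgeR, against 0%, 0.0456% and 0% of all genes tested. Members at an unadjusted p under 0.05 numbered 0, 0 and 1, the last being ERG13, and the DESeq2 Wald test called none in any of the 3. These amounts had wide ranges. ERG11 ran through 0, 596 and 2703 CPM at 10 pg and 34.5, 759 and 1647 CPM at 20 pg, and HMG1 through 0, 107 and 1642 CPM at 10 pg and 0.605, 195 and 671 CPM at 20 pg. SEs of the members' log2 fold changes ran from 0.92 (ERG3) to 1.73 (ERG5) between 5 pg and 10 pg, so that differences of several-fold were not detectable there.

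Part of the spread at the middle amounts followed the library number. At 20 pg the sum of the 10 genes was 2068 to 4801 CPM in the 4 libraries numbered 1 to 4 and 5316 to 6724 CPM in the 6 numbered above 4. At 100 pg it was 2376 to 2854 CPM in libraries 1 to 4 and 4531 to 6239 CPM in the 3 others. At the other 4 amounts the ranges of the sums overlapped. The labels give only the numbers and not what they stand for.

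ERG11 was lower in every library numbered 1 to 4 than in every higher-numbered one at 3 amounts. At 10 pg it was 0 to 568 CPM against 575 to 2703, at 20 pg 34.5 to 284 against 553 to 1647, and at 100 pg 169 to 343 against 428 to 832. At 1 ng the ranges, 529.6 to 1167 and 628 to 887 CPM, overlapped. ERG20 was apart at 20 pg, with 234 to 340 CPM against 368 to 1055, and at 100 pg, with 178 to 339 CPM against 378 to 705.

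Among members with a mean of at least 50 CPM, those lower without overlap in libraries 1 to 4 numbered 1 of 9 at 10 pg (ERG11), 3 of 7 at 20 pg (ERG6, ERG11 and ERG20) and 5 of 7 at 100 pg (ERG3, ERG6, ERG11, ERG20 and HMG1). Over all genes of that level the share was 5.53% at 10 pg, 9.49% at 20 pg and 45.1% at 100 pg. At 5 pg, 1 ng and 10 ng no member was lower without overlap, against 0.556%, 4.56% and 6.71% of all genes. No member was higher without overlap in libraries 1 to 4 at any amount, against 1.31% of all genes at 5 pg, 0.823% at 10 pg, 1.18% at 20 pg, 2.05% at 100 pg, 0.464% at 1 ng and 0.17% at 10 ng. ERG1, below that level, was at 4.85 to 8.63 CPM in libraries 1 to 4 of 100 pg and at 37.0 to 78.8 CPM in the others. Libraries 1 to 4 of 100 pg also listed fewer genes, with a median of 2429 genes with at least 5 counts against 4526. The part of this in the members' levels was not tested.

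**Figure D3:**
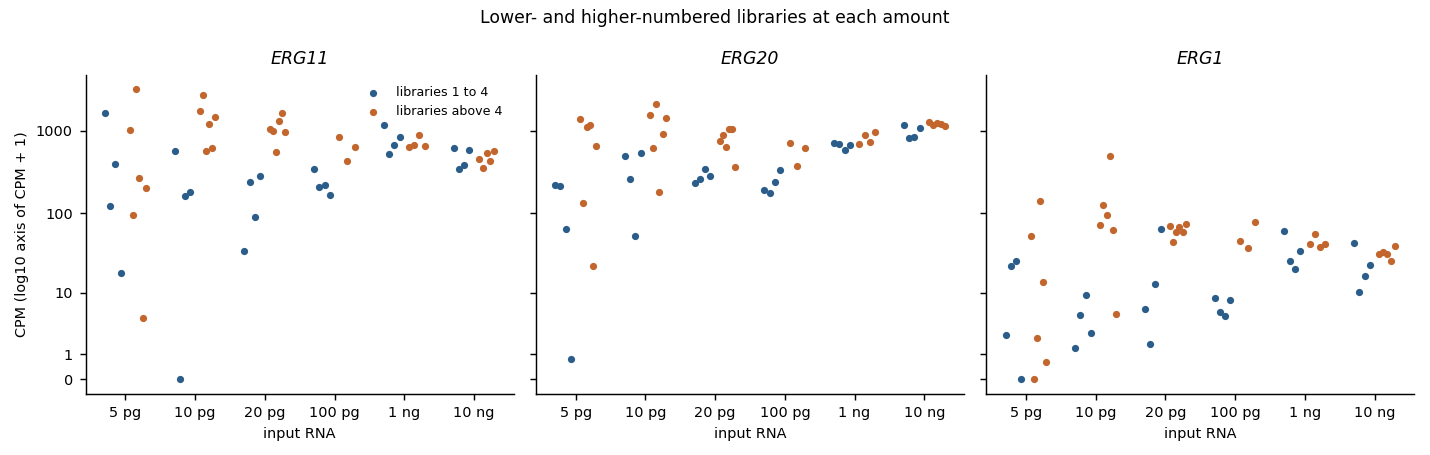
CPM of ERG11, ERG20 and ERG1 (vertical axis, log10 of CPM + 1) by input RNA, each point 1 library, blue for libraries numbered 1 to 4 and orange for those numbered above 4. At 100 pg ERG11 was at 169 to 343 CPM in the blue libraries and 428 to 832 CPM in the orange, while at 1 ng the colours overlapped.

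Between 100 pg and 1 ng, ERG11 and ERG20 were the members nearest to a call. ERG11 had 169, 343 and 832 CPM (lowest, median and highest of 7) at 100 pg and 529.6, 672 and 1167 CPM (of 8) at 1 ng, and 5 of the 7 libraries of 100 pg lay below all 8 of 1 ng. ERG20 had 178, 339 and 705 CPM at 100 pg and 584, 703 and 961 CPM at 1 ng, again with 5 of 7 libraries below. By edgeR none of the 10 members tested was called, against 6.87% of all genes (3.45% higher and 3.43% lower at 100 pg), and 2 had an unadjusted p under 0.05. With the set of library numbers (1 to 4, above 4) as a term, with the replicate block or by the DESeq2 Wald test both of these were called. The 2 were ERG11, with a log2 fold change, 100 pg over 1 ng, of -1.11 relative to the median of all genes (SE 0.31, adjusted p = 0.0517), and ERG20, with -1.05 (SE 0.29, adjusted p = 0.0534). The median of all genes was 0.12 and that of the members -0.43.

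The calls of this step differed between the sets of library numbers. Within libraries 1 to 4 the values were -1.13 for ERG11 (adjusted p = 0.00368), -0.85 for ERG20 (adjusted p = 0.0276) and -1.69 for ERG1 (adjusted p = 0.0270). Within the 3 libraries of 100 pg and 4 of 1 ng numbered above 4 they were -0.84, -1.12 and -0.37, with no gene called by edgeR of 4946 tested and 345 at an unadjusted p under 0.05. Without 1 ng replicate 5 or 1 ng replicate 9 both ERG11 and ERG20 were called, without 100 pg replicate 1 or 10 ERG11 alone, and without 100 pg replicate 4 ERG20 alone. Of the rest of the pathway 2 of 14 were called in this step, of the regulators 1 of 8 (SUT1, 2.06 higher, SE 0.54, adjusted p = 0.0135) and of storage and uptake 0 of 6. HMG2 was 1.70 higher at 100 pg (SE 0.41, adjusted p = 0.00713) and NCP1 1.34 higher (SE 0.39, adjusted p = 0.0199), a call lost without 100 pg replicate 1 or 1 ng replicate 10. With library totals 19 of all genes were called higher and 94 lower in this step, where TMM gave 161 and 160 and the DESeq2 Wald test 348 and 225.

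Between 1 ng and 10 ng, 2 of the 9 members tested were called by edgeR, in opposite directions, against 36.7% of all 3927 genes tested (20.8% higher and 15.9% lower at 1 ng). ERG20 was lower at 1 ng. Its lowest, median and highest values were 584, 703 and 961 CPM at 1 ng and 816, 1162 and 1294 CPM at 10 ng, and 6 of 8 libraries of 1 ng lay below all 9 of 10 ng. No member was lower at 1 ng with no overlap at all in CPM, against 6.76% of genes with a mean of at least 50 CPM, and none was higher, against 1.55%. HMG1 was higher at 1 ng, with 33.9, 61.4 and 154 CPM against 9.40, 24.9 and 119 CPM. The 119 CPM was in 10 ng replicate 5, and the other 8 libraries of 10 ng lay between 9.40 and 33.7 CPM, below every 1 ng library.

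Relative to the median of all genes (0.23), ERG20 fell by 1.05 on the log2 scale at 1 ng (SE 0.17, adjusted p = 0.00145) and was below the 10 ng mean in 8 of 8 libraries. HMG1 rose by 0.68 (SE 0.30, adjusted p = 0.0229) and was above the 10 ng mean in 8 of 8. Both calls held without any 1 of the 17 libraries, over which ERG20 ran from -1.11 to -0.83 and HMG1 from 0.59 to 1.04. HMG1 took its largest value without 10 ng replicate 5. Within libraries 1 to 4 ERG20 was -0.66 (adjusted p = 0.0277) and HMG1 1.11 (adjusted p = 0.00729). Within libraries above 4 both kept their direction, at -1.37 (adjusted p = 0.0588) and 0.39 (adjusted p = 0.244), where 83 of 4598 genes were called.

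Among the members that were not called, ERG3 stood at -0.71 (SE 0.20, adjusted p = 0.0618), ERG6 at -0.71 (SE 0.21, adjusted p = 0.0805) and ERG10 at -0.58 (SE 0.16, adjusted p = 0.0943). ERG3 was below the 10 ng mean in 8 of 8 libraries of 1 ng. ERG3 was called without 10 ng replicate 5 or 1 ng replicate 2, and ERG10 without 10 ng replicate 5. ERG11 had 529.6, 672 and 1167 CPM at 1 ng against 344, 452 and 612 CPM at 10 ng, with 7 of 8 libraries above every 10 ng library. Its value relative to the median of all genes was 0.21 with TMM (SE 0.23). Before that subtraction its edgeR adjusted p was 0.123 with TMM, 0.0267 with DESeq2 size factors and 0.00880 with library totals. In the DESeq2 Wald test the adjusted p was 0.0206. The subtracted medians were 0.23, 0.40, 0.51 and 0.34 in that order, so none of these p is a test of the 0.21. With TMM, ERG11 was called without 1 ng replicate 9. ERG25, ERG1 and ERG5 overlapped widely between the amounts, with adjusted p of 0.167, 0.456 and 0.960; ERG25 was called without 1 ng replicate 5. The median of the 9 members was -0.25.

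The other 15 genes of the pathway were counted from a list of the remaining enzymes and their partners. Of the 14 tested between 1 ng and 10 ng, 4 were higher and 7 lower at 1 ng by the same test. The higher ones were HMG2, NCP1, MVD1 and ERG2, and the lower ones ERG8, ERG9, ERG24, ERG26, ERG27, ERG28 and IDI1. Over all genes 816 of 1442 calls were higher at 1 ng with TMM, 1023 of 1524 with DESeq2 size factors and 931 of 1363 with library totals. ERG8, ERG9 and ERG27 were not called under DESeq2 size factors or library totals, and ERG8 lost its call in 15 of 17 fits that left out 1 library and ERG27 in 3 (10 ng replicate 3, 1 ng replicates 3 and 7).

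HMG2 had 96.9, 135 and 382 CPM at 1 ng against 51.6, 59.8 and 157 CPM at 10 ng, a rise of 0.73 (SE 0.20, adjusted p = 0.00165). NCP1 had 364, 588 and 1197 CPM against 176, 259 and 350 CPM, with no overlap, a rise of 0.83 (SE 0.21, adjusted p = 0.00112). MVD1, the mevalonate pyrophosphate decarboxylase, rose by 0.67 (SE 0.23, adjusted p = 0.00536). These 3 lost their calls only within libraries above 4.

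IDI1, the isopentenyl diphosphate isomerase whose product ERG20 uses, had 4.33, 57.7 and 103 CPM at 1 ng against 72.9, 109 and 180 CPM at 10 ng. It fell by 1.43 (SE 0.41, adjusted p = 0.0273), a call lost without 10 ng replicate 2, 3 or 4 or 1 ng replicate 5 or 7. ERG24, the C-14 sterol reductase that follows ERG11, fell by 1.09 (SE 0.24, adjusted p = 0.00915), with 174, 413 and 532 CPM against 427, 684 and 747 CPM. ERG26, the C-3 sterol dehydrogenase that works with ERG25, fell by 0.96 (SE 0.21, adjusted p = 0.0112), and ERG28, the scaffold of that complex, by 1.19 (SE 0.33, adjusted p = 0.0290). ERG28 lost its call without 10 ng replicate 2, 3 or 4 or 1 ng replicate 7 or 9, and ERG24 and ERG26 within either set of library numbers. ERG9, the squalene synthase, fell by 0.69 (SE 0.17, adjusted p = 0.0384), with the call lost in 14 of 17 fits that left out 1 library. ERG4, the last enzyme of the route and the most abundant of the 15 at 10 ng (1216 ± 268 CPM, SD, n = 9), stood at -0.51 (SE 0.16, adjusted p = 0.174).

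Of 9 regulators, 7 were tested in this step, with HAP1 higher and NSG2 and DAP1 lower at 1 ng. HAP1, a heme-responsive transcription factor, had 49.3, 98.7 and 282 CPM at 1 ng against 22.7, 51.1 and 128 CPM at 10 ng, a rise of 0.57 (SE 0.23, adjusted p = 0.0112). NSG2, a partner of HMG2 in the endoplasmic reticulum membrane, fell by 1.08 (SE 0.19, adjusted p = 0.00260), and DAP1, a heme protein that supports ERG11, by 1.28 (SE 0.37, adjusted p = 0.0294). NSG2 lost its call in 2 of the 9 other alternatives, library totals among them. DAP1 lost its call in 7 of those 9 and in 6 of 17 fits that left out 1 library. UPC2 and ECM22, named here after their values were seen because they bind the element printed above, were at no more than 4.83 and 19.1 CPM in any 1 ng library and 1.08 and 6.98 CPM in any 10 ng library. Of 8 genes of sterol storage and uptake, 3 were tested by edgeR and none was called. TGL1, a sterol ester hydrolase, was nearest at 0.44 (SE 0.28, adjusted p = 0.0591) and was the only one of the 3 at an unadjusted p under 0.05; it was called in 6 of 17 fits that left out 1 library.

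The direction of these changes went with coding length. The 6 genes of the 4 lists that were higher at 1 ng had a median coding length of 2607 nt, with HMG1 at 3165 nt, HMG2 at 3138 nt and HAP1 at 4509 nt. The 10 that were lower had a median of 1047 nt and ranged from 447 nt in ERG28 to 1356 nt in ERG8. Across all genes tested, the 815 called higher with a known coding length had a median of 2142 nt and the 626 called lower 567 nt. The rank correlation of coding length with the fold change was 0.746 over 3926 genes, 0.500 over the 33 tested genes of the 4 lists and 0.483 over the 9 members. These are correlations across genes of the same libraries, given as a description. ERG2 (669 nt) and MVD1 (1191 nt), both higher at 1 ng, lay away from this pattern; the call of ERG2 was lost in 6 of 17 fits that left out 1 library (1 ng replicates 1 and 10, 10 ng replicates 6, 7, 9 and 10), with adjusted p up to 0.0830. The part of length in the members' changes was not tested.

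**Figure D4:**
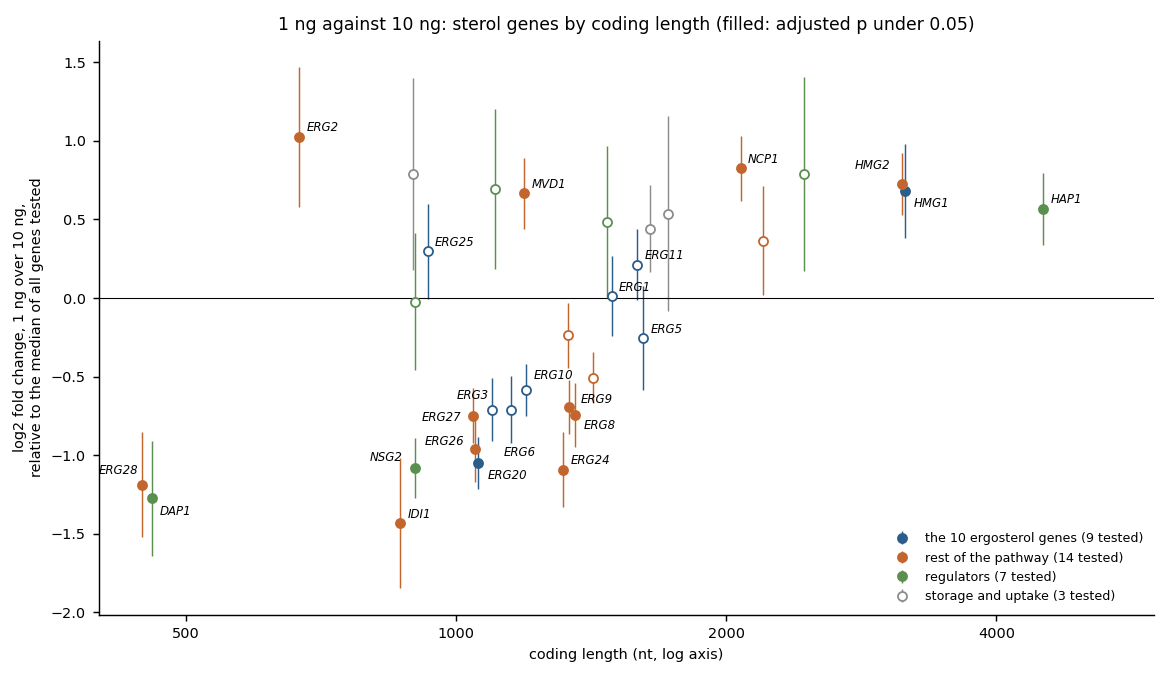
Log2 fold change of 1 ng over 10 ng relative to the median of all genes (vertical axis, bars are SE) against coding length (nt, log axis) for the tested genes of the 4 lists; filled points passed an adjusted p under 0.05. HMG1 (3165 nt) and HMG2 (3138 nt) stood at 0.68 and 0.73, and ERG20 (1059 nt) at -1.05.

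A single test for any difference among the 6 amounts called 3 of 9 members, against 36.7% of 4182 genes: ERG10 (adjusted p = 0.000260), ERG20 (adjusted p = 0.0133) and ERG6 (adjusted p = 0.0417). With library totals none of the 3 passed (adjusted p = 0.351, 0.308 and 0.482), and within libraries above 4 none passed either (adjusted p = 0.985, 0.848 and 0.177). With the 50% filter 3 members were called again, but not the same 3: ERG10 (adjusted p = 0.000480), ERG25 (adjusted p = 0.0142) and ERG5 (adjusted p = 0.0317), while ERG20 and ERG6 were not (adjusted p = 0.163 and 0.202).

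ERG13 was nearly absent from the 54 libraries and present in all 5 H6P libraries. It had at least 1 count in 24 of 54 libraries and at least 5 counts in 8, and its counts over all 54 came to 270. Of those, 134 were in 10 pg replicate 6, at 96.8 CPM (95% exact binomial interval 81.1 to 115). It was at 0 in 7 of 10 libraries at 5 pg, 8 of 10 at 10 pg, 5 of 10 at 20 pg, 2 of 7 at 100 pg, 4 of 8 at 1 ng and 4 of 9 at 10 ng. Its highest values elsewhere were 25.0 CPM at 100 pg, 12.5 at 1 ng and 6.89 at 10 ng. The other members were found far more often: ERG3, ERG6, ERG10, ERG11 and ERG20 had at least 5 counts in 53 libraries each, ERG25 in 46, HMG1 in 44, ERG1 in 42 and ERG5 in 38.

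In the H6P libraries ERG13 was at 108 CPM in H6P11 (95% exact binomial interval 99.6 to 116), 130.2 in H6P12 (123 to 137), 68.2 in H6P14 (63.1 to 73.6), 29.2 in H6P15 (26.4 to 32.2) and 142 in H6P16 (136 to 148). It was not the only gene of this kind: of 2796 genes with at least 20 CPM in all 5 H6P libraries, 141 (5.04%) reached 5 counts in no more of the 54 libraries than ERG13 did, while 67.1% reached it in at least 27. The study's sample list places the H6P libraries and the others in separate sequencing batches, so batch and library kind cannot be told apart.

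The order of the members was another in the H6P libraries. Per kilobase, ERG20 stood first in 4 of them and second in H6P12, and ERG11 stood first in H6P12 and second in the 4 others. ERG20 was at 557, 459, 884, 494 and 574 CPM in H6P11, H6P12, H6P14, H6P15 and H6P16, and ERG11 at 551, 767, 665, 527 and 555. ERG3 was at 86.0, 293, 135, 192 and 315 CPM and took places 3 to 7. The rank correlation of the 10 levels with the 10 ng order ran from 0.539 to 0.745, with a median of 0.733. The 100 pg libraries had 0.879 to 0.976, those of 20 pg 0.806 to 0.988, of 10 pg 0.564 to 0.902 and of 5 pg 0.0840 to 0.903. The H6P values thus lay within the wide range of the 5 pg libraries, and all but that of H6P11 (0.539) also within the range of the 10 pg libraries.

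Single members dropped out of H6P15 or H6P16. These libraries had the most counts of the H6P libraries but listed fewer genes with at least 5 counts, 4504 and 4739. H6P11, H6P12 and H6P14 listed 5786, 5872 and 5735. The part of this in the values below was not tested. ERG5 had 0 of 14043336 counts in H6P15, which allows up to 0.214 CPM (3 counts), and was at 40.3 to 81.3 CPM in the other 4. HMG1 was at 4.74 CPM in H6P16 (95% exact binomial interval 3.68 to 6.01) and at 146 to 270.4 CPM in the other 4. Outside the 10, UPC2 was at 23.0 to 55.9 CPM in H6P11, H6P12 and H6P14 and at 0 in H6P15 and H6P16. ERG25 was the steadiest, at 71.1 to 96.3 CPM in all 5.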

How the data were processed

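The deposited files, 1 per library, hold counts per gene that the authors made from paired reads of oligo-dT primed, PCR-amplified cDNA without molecular identifiers: STAR 2.5.2 aligned the reads to the SGD R64 genome without trimming, and HTSeq gave raw counts of uniquely mapped reads, with strand not marked. Counts were used as deposited. Lines naming no gene (8.05% to 26.8% of counts other than spike-ins) and 92 spike-ins, which held 33.1% to 72.3% of gene and spike-in counts in the 54 libraries with an amount and at most 7.72% in the H6P libraries, stayed out of totals and tests. Gene names, coding lengths, coordinates and sequences came from the RefSeq R64 annotation, which matched 6061 of 6420 identifiers.

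The main test was edgeR 4.0.16 (glmQLFit, glmQLFTest, TMM scaling) on the 2 amounts compared, with genes at 5 or more counts in at least 20% of those libraries and Benjamini-Hochberg adjustment over all genes tested. Alternatives were DESeq2 1.42.0 size factors and Wald test, library totals, no filter, a 50% filter, the replicate number as a block, the library number set (1 to 4, above 4) and leaving out 1 library at a time. The fits were also run on simulated data in which each gene had the same dispersion at both amounts. The simulation therefore cannot show how the test behaves where the spread differs between amounts, as between 5 pg and 10 ng. No 2 libraries had identical counts. Libraries without a labelled amount entered no test. Same-numbered libraries deviated together (correlation above 0.1) in 6 of 7 pairs between 100 pg and 1 ng and in 6 of 8 between 1 ng and 10 ng. In no comparison did every pair do so, and the main test did not take the numbers as pairs. The replicate block is the alternative that does. The text names all 10 members, the genes of 3 further lists (rest of the pathway, regulators, storage and uptake) that passed the threshold or were among the 3 most abundant at 10 ng of each list, and the 5 genes most alike in pattern. Members and lists were chosen with earlier results of these data known.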

Additional observations from a re-analysis of the deposited data

Results flagged for a closer look

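In 60 sets of values (10 genes at 6 amounts), 5 libraries stood apart from the rest of their amount by Dixon's ratio on log2(CPM + 1), where chance gives about 1 in 20. HMG1 was at 119 CPM in 10 ng replicate 5, with the other 8 libraries at 9.40 to 33.7. ERG11 was at 0 CPM in 10 pg replicate 2, whose depth allows up to 7.30 CPM, with the others at 160.4 to 2703. ERG13 was at 96.8 CPM in 10 pg replicate 6, with the others at 0 to 0.491. ERG6 was at 611 CPM in 1 ng replicate 9, with the others at 998 to 1457. ERG3 was at 296 CPM in 20 pg replicate 2, with the others at 963 to 2166. ERG13 was also present in libraries that enter no comparison, at 108 CPM in H6P11, 130.2 in H6P12, 68.2 in H6P14, 29.2 in H6P15 and 142 in H6P16.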

How the results depend on the processing

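No member was called between 5 pg and 10 pg, 10 pg and 20 pg or 20 pg and 100 pg in any of the 9 alternatives run for each, where no library was left out. Between 5 pg and 10 ng, 2 members were called; the count was 1 with DESeq2 size factors or the DESeq2 Wald test, 0 with library totals, no filter, the 50% filter, the replicate block, the number set as a term or within either set, and 0 to 3 when 1 library was left out. Between 100 pg and 1 ng it was 0; 1 with DESeq2 size factors or the 50% filter, 2 with the DESeq2 Wald test, the replicate block or the number set as a term, 3 within libraries 1 to 4, and 0 to 2 when 1 library was left out. Between 1 ng and 10 ng it was 2; 3 with DESeq2 size factors, library totals, the DESeq2 Wald test, the 50% filter or the number set as a term, 4 within libraries 1 to 4, 0 within those above 4, and 2 to 4 when 1 library was left out. Over the 6 amounts it was 3; 3 with the 50% filter, of which ERG10 alone was shared, 2 with the number set as a term, 1 with DESeq2 size factors, the replicate block or within libraries 1 to 4, and 0 with library totals or within those above 4.

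Between 5 pg and 10 ng, ERG10 turned to -0.86 within libraries above 4 and ranged from -0.53 (without 5 pg replicate 4) to 2.24 when 1 library was left out, ERG25 turned to -2.75 within libraries 1 to 4, and with the replicate block ERG3 turned to 0.52 and MVD1 to -0.36. SUT1 turned to -1.21 in the DESeq2 Wald test, -0.21 with the replicate block, -0.11 with the number set as a term and -4.06 within libraries above 4, and ranged from -3.12 (without 5 pg replicate 4) to 6.26 when 1 library was left out. Between 1 ng and 10 ng, ERG11 turned to -0.16 within libraries above 4. Of all fold changes recomputed for the named genes, 746 kept direction and side of the threshold, 172 lost the call, 38 gained it and 11 reversed. The median number of members detected per library was 9 at 20 pg, 100 pg and 10 ng; at 20 CPM or more it was 8, 7 and 8, and at 1 count or more it was 10 at 10 ng. The cause of these differences was not tested.

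The library numbers were not taken as pairs, since in no step did every same-numbered pair correlate above 0.1. The correlation of their deviations had a median of 0.00717 between 5 pg and 10 ng (0 of 9 pairs above 0.1), 0.197 between 100 pg and 1 ng (6 of 7, and 5 of 7 best with their own number, where other pairs had a median of -0.027) and 0.152 between 1 ng and 10 ng (6 of 8, and 4 of 8 best with their own). Genes called of all tested between 5 pg and 10 ng were 1070, with 509 by library totals, 336 by the 50% filter, 562 by the replicate block, 568 with the number set as a term, 0 within libraries 1 to 4 (874 at an unadjusted p under 0.05) and 633 within those above 4. Between 100 pg and 1 ng 321 were called, with 113 by library totals, 573 by the DESeq2 Wald test, 968 within libraries 1 to 4 and 0 within those above 4. Between 1 ng and 10 ng 1442 were called, with 870 within libraries 1 to 4 and 83 within those above 4. The DESeq2 Wald test called 99 between 5 pg and 10 pg and 147 between 10 pg and 20 pg, where edgeR called 0 and 2. Over the 6 amounts 1535 were called, and 768 with the replicate block.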

Other observations

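The genes outside the sterol lists whose level went most with the summed level of the 10 genes over the 54 libraries were END3 (Spearman's rho 0.675), FPR3 (0.675), RPL8B (0.642), MPC2 (0.639) and SSK2 (0.633), of 1798 genes with a mean of at least 50 CPM. The libraries share depth and amount, so these are descriptions. Among the 10 genes themselves, pairs other than those with ERG13 had a median rho, over 36 pairs, of 0.492 at 10 ng, 0.286 at 1 ng, 0.536 at 100 pg, 0.406 at 20 pg, 0.366 at 10 pg and 0.0667 at 5 pg, with no steady order.

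The regulator HAP1 was at 2177, 1289, 1070, 792 and 1280 CPM in H6P11, H6P12, H6P14, H6P15 and H6P16. Its mean at 10 ng was 55.0 ± 30.0 CPM (SD, n = 9). By edgeR HAP1 was also called higher at 5 pg and at 1 ng than at 10 ng. The mean coding length weighted by counts was 1739 ± 227 nt in the H6P libraries (SD, n = 5) against 1057 ± 55.4 nt at 10 ng (SD, n = 9). Batch and library kind cannot be told apart here either, and the part of length was not tested.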
